A study of Mus musculus with 22 samples.

Results

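Nuclear oxidative phosphorylation genes are the nuclear genes that encode the subunits of the mitochondrial respiratory chain and of ATP synthase. The 85 genes described here, of 23037 in the table, are those whose mouse symbol begins with Nduf followed by a subunit letter and a digit, with Cox4 to Cox8, Uqcr or Atp5, or is Sdha to Sdhd. By these names 39 belong to complex I, 4 to complex II, 8 to complex III, 17 to complex IV and 17 to complex V. The rule uses gene names and no measured value. The list holds 1 pseudogene (Ndufs5-ps), and Ndufa4, which is also known as a subunit of complex IV, is counted with complex I by its name.

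Polyadenylated RNA was measured by 3′ RNA sequencing (CelSeq2) in the hippocampus, cortex and cerebellum of wild-type (WT) mice and of circTulp4-deficient (CD) mice. CD mice carry a CRISPR-Cas9 change of the splice acceptor used to make circTulp4, a circular RNA of the Tulp4 gene, on a C57BL/6 background. The line goes back to a single mosaic founder, and in it circTulp4 is lowered rather than lost. The 22 libraries came from 8 mice, 4 of each genotype: hippocampus of 3 WT and 4 CD mice, cortex of 4 WT and 4 CD mice, and cerebellum of 4 WT and 3 CD mice. The age and sex of these mice are not given in the sources used here. Counts on 1 transcript per gene came to between 2760846 and 8858937 a library, of which the 85 genes held between 42204 and 146773. Levels are given in CPM (cpm), a gene's counts scaled to a common library total after adjustment by the trimmed mean of M values (TMM), and errors are SD over libraries.

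The labelled regions carried their own markers: 8 granule cell markers summed to between 3310 and 4380 cpm in the cerebellum and to between 51.0 and 93.8 cpm elsewhere, while 7 markers of forebrain excitatory neurons summed to between 12700 and 22000 cpm in hippocampus and cortex and to at most 1230 cpm in the cerebellum. In the hippocampus the surplus of counts on one Tulp4 transcript over the other was between 3 and 5 counts in 3 CD libraries and between 17 and 24 counts in the WT libraries, but 16 counts in the library labelled CD of mouse m118. That library lay with the WT libraries on this measure, so the main hippocampal results are also given without it. In the other regions the same mouse had 5 counts in the cortex and 7 in the cerebellum. There the raw counts overlapped between genotypes. The cortex had 1 to 8 counts in CD and 19 to 31 in WT libraries except for 4 in WT mouse m244. The cerebellum had 3 to 19 in CD and 17 to 72 in WT libraries. Scaled by library totals, without TMM, the surplus did not overlap in these regions. It was at 0.141 to 1.29 cpm in CD and 1.45 to 6.02 cpm in WT cortex. In the cerebellum it was at 0.599 to 2.61 cpm in CD and 3.12 to 13.6 cpm in WT libraries. On that scale the hippocampal library of mouse m118 was at 3.97 cpm, against 2.71 to 3.69 cpm in WT hippocampi. The blood gene Hba-a1 set the libraries of this mouse apart in each region. It was at 6050, 6610 and 6960 cpm in hippocampus, cortex and cerebellum of m118 and at most 4250 cpm in every other library. Whether the hippocampal library of mouse m118 is mislabelled was not tested. Choroid plexus markers also varied among hippocampi, from 128 to 8240 cpm, with the highest sums in the libraries of WT mouse m244 and CD mouse m190.

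Complex I takes electrons from NADH and complex II from succinate. Both hand them through coenzyme Q to complex III and through cytochrome c to complex IV, which reduces oxygen. Complexes I, III and IV pump protons out of the matrix, and complex V lets them return to make ATP. Neurons draw most of their ATP from this chain, and several complex IV subunits exist in a common form and in forms best known from muscle, testis or lung.

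Many promoters of these genes are known for sites of nuclear respiratory factor 1 (NRF1), of ETS factors such as GABP, and of YY1. RefSeq promoters (GRCm38.p6, from 250 bases before to 50 after a start) were at hand for 69 of the 85 genes. The letters GCGCATGCG (NRF1) were found on either strand in 8 of them (11.6%), CCGGAAGT (ETS) in 5 (7.2%) and AAGATGGCG (YY1) in 7 (10.1%). At least 1 of these 3 was present in 19 genes (27.5%). Among all 27025 genes with such a promoter the shares were 2.0%, 4.3% and 1.6%, and 7.5% for any of them. Among the 8853 of these genes that were tested between regions they were 3.9%, 8.7% and 3.6%, and 15.2% for any. In no promoter of the members did matches to different motifs overlap. A match here is a run of letters and no measured binding. The promoters below belong to members that differed between the cerebellum and both other regions, 1 for each motif and 1 that held none, with the motif in capitals.
Cox6a1, chr5:115348909-115349208, minus strand: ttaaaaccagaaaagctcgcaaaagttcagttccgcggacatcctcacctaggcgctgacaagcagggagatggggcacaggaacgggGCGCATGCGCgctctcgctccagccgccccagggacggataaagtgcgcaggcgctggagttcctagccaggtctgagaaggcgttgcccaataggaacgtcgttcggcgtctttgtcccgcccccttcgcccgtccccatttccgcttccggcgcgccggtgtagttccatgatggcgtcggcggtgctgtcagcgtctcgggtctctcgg
Ndufs7, chr10:80249199-80249498, plus strand: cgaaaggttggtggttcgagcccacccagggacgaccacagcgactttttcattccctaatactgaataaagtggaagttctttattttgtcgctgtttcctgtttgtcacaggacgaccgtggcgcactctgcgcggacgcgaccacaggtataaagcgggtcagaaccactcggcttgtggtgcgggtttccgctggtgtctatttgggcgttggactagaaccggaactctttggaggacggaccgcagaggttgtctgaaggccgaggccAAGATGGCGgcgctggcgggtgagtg
Uqcrh, chr4:116075021-116075320, minus strand: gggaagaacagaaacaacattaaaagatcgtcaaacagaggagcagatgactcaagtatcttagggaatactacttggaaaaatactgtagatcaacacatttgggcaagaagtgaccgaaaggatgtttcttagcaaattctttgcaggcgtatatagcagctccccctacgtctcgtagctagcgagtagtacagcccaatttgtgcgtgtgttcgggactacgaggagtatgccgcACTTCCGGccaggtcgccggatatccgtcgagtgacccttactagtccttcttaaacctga
Cox6b2, chr7:4753045-4753344, minus strand: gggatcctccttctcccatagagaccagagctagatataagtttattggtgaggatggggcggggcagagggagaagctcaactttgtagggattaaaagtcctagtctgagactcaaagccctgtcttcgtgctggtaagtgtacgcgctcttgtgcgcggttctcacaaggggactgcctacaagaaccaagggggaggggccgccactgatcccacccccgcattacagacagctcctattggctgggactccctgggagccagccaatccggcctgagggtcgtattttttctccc

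The first question was how evenly the 85 genes are expressed over the 3 regions, with WT and CD libraries together (7 hippocampus, 8 cortex, 7 cerebellum). A gene was called past the thresholds where edgeR's quasi-likelihood test gave a Benjamini-Hochberg adjusted p below 0.01 and the fold was above 2 or below 0.5, and as differing where the adjusted p alone was below 0.01. Of the 85 genes 76 passed the filter of 5 cpm in 2 libraries and 9 did not (Ndufb4b, Ndufs3, Ndufs5, Sdhd, Cox7b2, Cox7c, Cox8b, Atp5g2 and Atp5l). Cox7a1 passed through the cerebellum alone, and Cox6a2 through cortex and hippocampus alone. Atp5j reached 5 cpm in 1 hippocampal, 1 cortical and 3 cerebellar libraries. Among the 9 that did not pass, Ndufs5 had 34 counts over all libraries, Cox7c 73 and Atp5g2 14. Of the 83 members with a GENCODE transcript, 23 hold, within their last 300 bases, a stretch of at least 100 bases with at least 95% identity to another gene. Ndufa12, with 471553 counts, is one of these, and Sdhd, Cox7b2 and Cox8b are not. How the counting treated reads of such genes was not tested.

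The members past the thresholds in any region comparison were isoforms of complex IV subunits. Between cortex and hippocampus 1 member of 76 was past the thresholds (1.32%), against 8.41% of the 11137 genes tested. It was also the one member with an adjusted p below 0.01, a share that was 25.9% over all genes. Between cerebellum and hippocampus 4 members (5.26%) were past the thresholds, against 22.8% of all genes, and 23 (30.3%) differed, against 50.7%. Of these 17 were higher and 6 lower in the cerebellum (24.7% and 26.0% of all genes). Between cerebellum and cortex 4 members (5.26%) were past the thresholds, against 22.6%, and 25 (32.9%) differed, against 51.7%, with 17 higher and 8 lower (25.7% and 26.0% of all genes). The median size of the log2 fold change was 0.0825, 0.218 and 0.189 over the members in these 3 comparisons and 0.232, 0.427 and 0.431 over all genes tested. Cox7a1, which passed the filter through the cerebellum alone, is among the 4 past the thresholds in both cerebellar comparisons and is no support for them. Cox6a2, also among these 4, passed the filter through cortex and hippocampus alone, where it was high, and is no support for them either. There are 7 members that are variant forms with a common counterpart (Cox4i2, Cox6a2, Cox6b2, Cox7a1, Cox7a2l, Cox8b and Ndufa4l2), and 6 of them were tested. Outside these, the 70 tested members spanned log2 fold changes from -0.42 to 0.47 for cerebellum against hippocampus and from -0.39 to 0.41 for cerebellum against cortex, and none was past the thresholds. By adjusted p alone 14 of them were higher and 4 lower than in the hippocampus, and 14 higher and 6 lower than in the cortex.

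**Figure D1:**
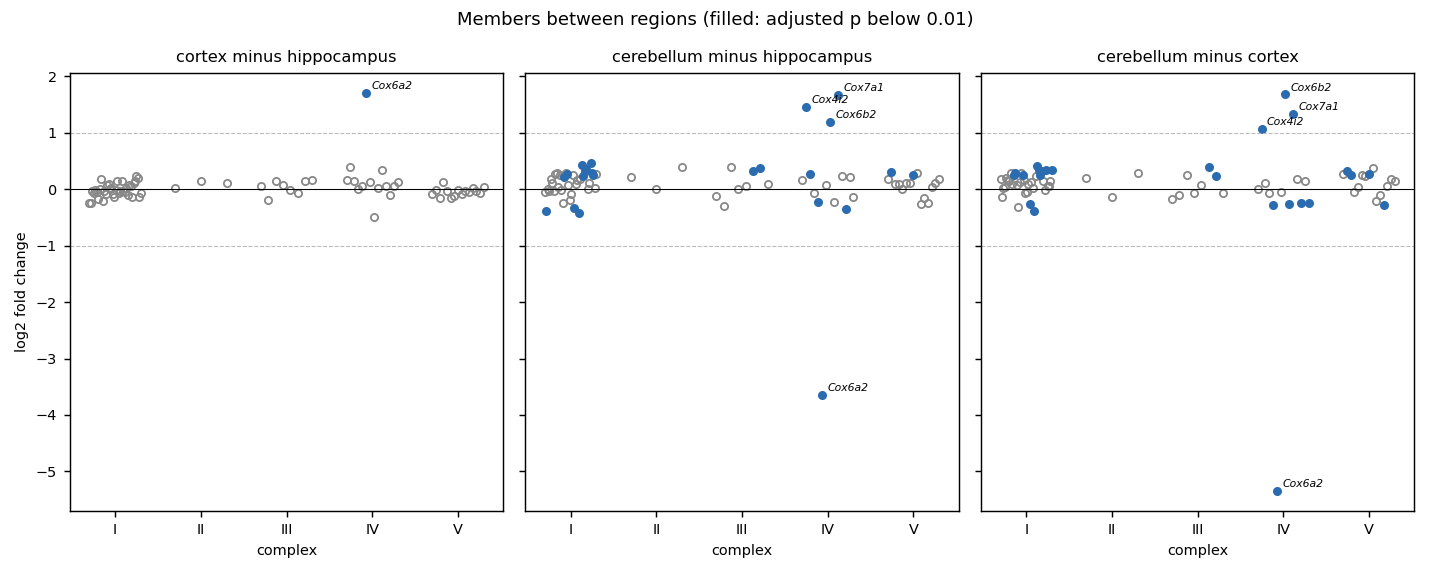
Log2 fold change (vertical axis) of each of the 76 tested members in the 3 region comparisons, by complex, with filled points at an adjusted p below 0.01 and dashed lines at a fold of 2 either way. Cox6a2, Cox6b2, Cox4i2 and Cox7a1 lie beyond the dashed lines, and all other points lie between them.

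Cox6a2, the heart and skeletal muscle form of subunit VIa (chromosome 7, 128205435 to 128206366, GRCm38), showed the widest range of any member. It ran from 39.5 through a median of 65.8 to 70.9 cpm in the cortex, from 15.2 through 17.9 to 26.4 cpm in the hippocampus, and from 0.453 through 1.28 to 2.96 cpm in the cerebellum. The 3 regions did not overlap. The cortex was 1.70 ± 0.15 log2 units (SE) above the hippocampus (adjusted p = 2.31e-09), and the cerebellum was lower than the cortex, with a log2 fold change of -5.34 ± 0.22 (adjusted p = 7.49e-17), and lower than the hippocampus, at -3.64 ± 0.23 (adjusted p = 5.99e-13). Its cerebellar libraries held between 3 and 21 counts each, and none reached 5 cpm. It passed the filter through the other regions, so a lower level in the cerebellum was to be met.

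Its common form Cox6a1 moved far less. It ran from 465 to 581 cpm in the cortex, from 454 to 549 cpm in the hippocampus and from 391 to 451 cpm in the cerebellum, where it was lower than in the cortex by -0.29 ± 0.06 on the log2 scale (adjusted p = 1.98e-04). The log2 ratio of Cox6a2 to Cox6a1 was -3.04 ± 0.24 (SD, n = 8) in the cortex, -4.61 ± 0.32 (n = 7) in the hippocampus and -7.87 ± 0.71 (n = 7) in the cerebellum.

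Other markers moved with Cox6a2 in part. A list of 5 skeletal muscle genes summed to between 13.6 and 19.8 cpm in the cortex, 5.47 and 8.36 cpm in the hippocampus and 1.65 and 5.46 cpm in the cerebellum. Acta1 made most of the cortical sum. It was at between 9.83 and 16.6 cpm in the cortex, 3.80 and 6.31 cpm in the hippocampus and 1.47 and 2.87 cpm in the cerebellum. The muscle creatine kinase Ckm, a defining gene of that tissue, was near 0. It was at most 0.792 cpm in the cortex, 0.231 cpm in the hippocampus and 0.248 cpm in the cerebellum. Myh4 was at most 1.99 cpm in the cortex and at 0 in every cerebellar library. Mylpf (at most 1.6 cpm in the cortex and 1.35 cpm in the cerebellum) and Tnnt3 (at most 1.98 and 2.73 cpm) overlapped between regions. Pvalb, which marks a class of fast-spiking interneurons in the forebrain, was at between 143 and 216 cpm in the cortex and 42.6 and 104 cpm in the hippocampus, but at between 1300 and 1620 cpm in the cerebellum, where Purkinje cells and interneurons carry it. The part of cell composition in the Cox6a2 difference was not tested, and in bulk tissue fewer cells of a type cannot be told from less RNA per cell. The 3′ end of Cox6a2 overlaps Itgad on the other strand, and whether reads were counted by strand is not given in the sources used here.

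Cox6b2, the form of subunit VIb best known from testis (chromosome 7, 4751792 to 4753094), went the other way. It ran from 21.1 through a median of 29.1 to 39.4 cpm in the cerebellum, from 7.76 through 13.1 to 16.9 cpm in the hippocampus and from 5.48 through 8.40 to 12.3 cpm in the cortex. The cerebellum did not overlap with either forebrain region, and hippocampus and cortex overlapped. The cerebellum was 1.68 ± 0.19 log2 units above the cortex (adjusted p = 1.92e-08) and 1.19 ± 0.18 above the hippocampus (adjusted p = 4.23e-06). Cox6b1, its common form, was at 301 ± 41.0, 285 ± 15.8 and 314 ± 31.6 cpm in cerebellum, hippocampus and cortex, and passed no test.

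Cox4i2, the subunit IV form known from lung and from low oxygen (chromosome 2, 152753916 to 152765039), ran from 12.4 through 16.9 to 22.4 cpm in the cerebellum, from 2.07 through 5.67 to 9.38 cpm in the hippocampus and from 2.81 through 7.82 to 12.6 cpm in the cortex. Only its highest cortical library reached above the lowest cerebellar one. The cerebellum was 1.46 ± 0.27 log2 units above the hippocampus (adjusted p = 5.36e-05) and 1.07 ± 0.26 above the cortex (adjusted p = 9.66e-04). In the brain this gene is known from pericytes, and a list of 9 pericyte and smooth muscle genes summed to at most 203 cpm in the cerebellum, and to between 169 and 232 cpm in the hippocampus and 174 and 275 cpm in the cortex. Single genes of the list parted. Acta2, of smooth muscle, was at between 16.7 and 28.5 cpm in the cerebellum, 39.1 and 71.8 cpm in the hippocampus and 30.6 and 77.2 cpm in the cortex. Vtn, of pericytes, was at between 99.4 and 136 cpm in the cerebellum, 82.6 and 126 cpm in the hippocampus and 99.5 and 180 cpm in the cortex. Rgs5, also of pericytes, overlapped, at 17.4 to 23.2, 14.5 to 25.2 and 14.9 to 25.1 cpm in cerebellum, hippocampus and cortex. The part of these cells in the Cox4i2 difference was not tested. Cox4i1 was at 525 ± 48.0, 468 ± 43.1 and 528 ± 58.9 cpm in cerebellum, hippocampus and cortex.

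Cox7a1, the muscle form of subunit VIIa (chromosome 7, 30184171 to 30186030), lay near the filter, from 2.95 through 4.47 to 6.41 cpm in the cerebellum, 0.252 through 1.16 to 3.52 cpm in the hippocampus and 0.749 through 1.75 to 3.25 cpm in the cortex. It passed through its high cerebellar libraries, so a difference in that direction was to be met. It was 1.67 ± 0.35 and 1.33 ± 0.34 log2 units higher in the cerebellum than in hippocampus and cortex (adjusted p = 2.28e-04 and 0.00142), on between 1 and 36 counts a library. Cox7a2, its common form, was at 66.2 ± 8.08, 56.7 ± 4.91 and 58.6 ± 6.31 cpm in cerebellum, hippocampus and cortex.

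**Figure D2:**
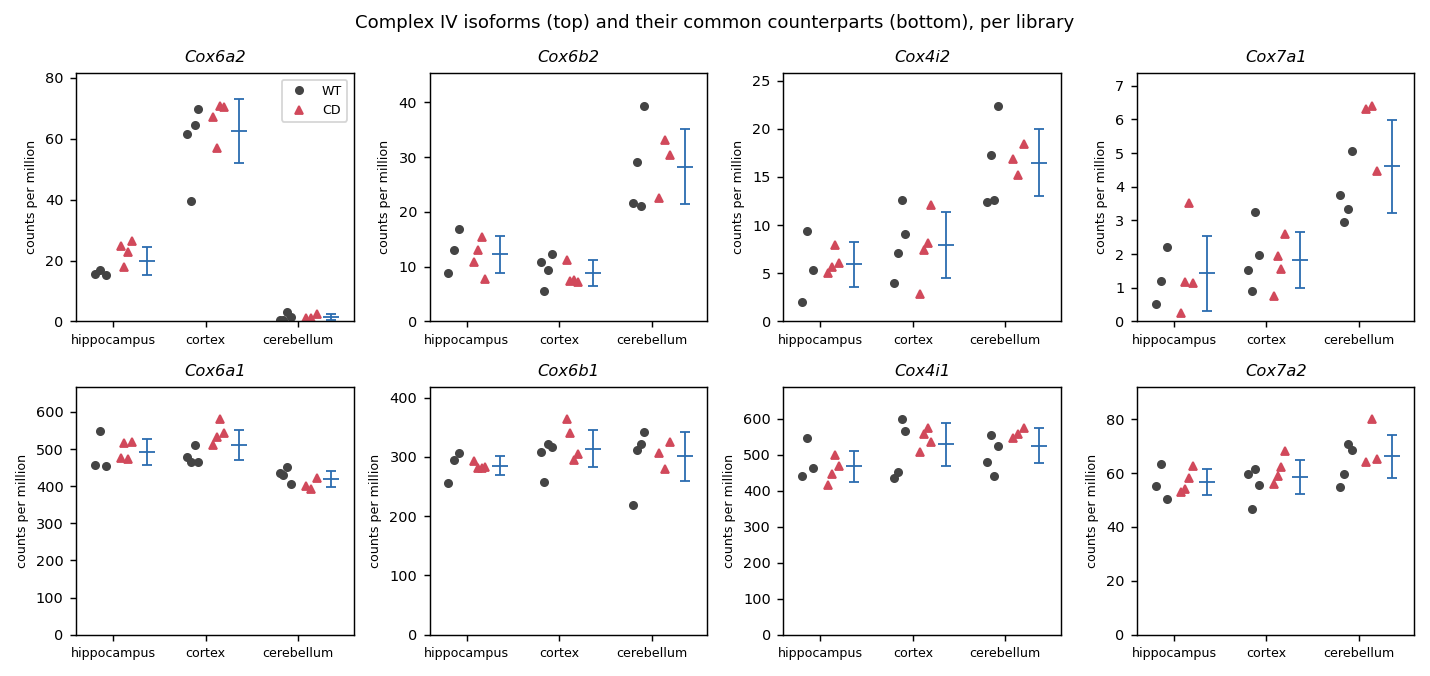
Levels in cpm of 4 variant complex IV subunits (top row) and their common counterparts (bottom row) in each WT (circles) and CD (triangles) library of the 3 regions, with the mean and SD over both genotypes as a bar beside each region. In the top row the cerebellar mean stands apart from both others, most of all for Cox6a2 at 1.48 against 62.6 cpm in the cortex, although single libraries of Cox4i2 and Cox7a1 overlap, and the bottom row stays within narrow ranges.

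The ratio of each variant to its common form was compared between regions by exact two-sided permutation tests over libraries. There were 21 tests in all for 7 pairs, with p-values adjusted over the 21. These tests treat libraries of 1 mouse as independent. A sign-flip test within mice gave an adjusted p of 0.0505 for each call of Cox6a2, Cox6b2, Cox4i2, Cox7a1 and Cox7a2l. It gave 0.0938 for the Cox8b call, so none held below 0.05. Cox6a2 over Cox6a1 and Cox6b2 over Cox6b1 differed in all 3 comparisons: for Cox6b2 the log2 ratio was 1.68 higher in cerebellum than in cortex (exact p = 0.000155, adjusted p = 0.00109), 1.12 higher than in hippocampus (exact p = 0.000583, adjusted p = 0.00145) and 0.57 lower, at -0.566, in cortex than in hippocampus (exact p = 0.00715, adjusted p = 0.0125). Cox4i2 over Cox4i1 was 1.31 and 1.12 higher in the cerebellum than in hippocampus and cortex (exact p = 0.000583 and 0.000466, adjusted p = 0.00145 for both). Cox7a1 over Cox7a2 was 1.34 and 1.01 higher there, which is given as a description, since Cox7a1 passed the filter through its cerebellar libraries. The cerebellar comparisons of Cox6a2 are a description too, since it passed through cortex and hippocampus alone.

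Cox7a2l, known to help join complexes III and IV into a supercomplex, moved against Cox7a2. Whether Cox7a2l has that role in these mice was not tested. Its level was 457 ± 28.8 cpm in the cerebellum, 544 ± 67.3 cpm in the cortex and 580 ± 56.0 cpm in the hippocampus, and its log2 ratio to Cox7a2 was lower in the cerebellum by -0.558 against the hippocampus (exact p = 0.000583, adjusted p = 0.00145) and by -0.418 against the cortex (exact p = 0.00171, adjusted p = 0.00359). Ndufa4l2, a form of Ndufa4 induced by low oxygen, was at 8.56 ± 0.96, 7.12 ± 1.69 and 8.05 ± 1.57 cpm in cerebellum, hippocampus and cortex, and its ratio to Ndufa4 passed no test (exact p = 0.157 at the lowest, adjusted p = 0.206).

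Cox8b, the muscle form of subunit VIII, was near 0 everywhere, with between 0 and 17 counts a library. Its highest levels, 2.91 and 1.91 cpm, were in the hippocampi of WT mouse m244 and CD mouse m190, the same libraries that led in the choroid plexus gene Ttr, at 8100 and 4090 cpm against between 120 and 1180 cpm in the other hippocampi. Its ratio to Cox8a was lower in cortex than in hippocampus, with a difference of -0.812 (exact p = 0.0266, adjusted p = 0.0429). That call was lost in 11 of the 15 analyses that left out 1 library, among them those without WT mouse m244 and CD mouse m190, and the part of choroid plexus RNA in it was not tested.

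Of the 36 tested members of complex I 9 were higher and 3 lower in the cerebellum than in the hippocampus, and 9 were higher and 2 lower than in the cortex, where 50.7% and 51.7% of all genes differed. Among the members that were higher against both regions were Ndufs7, Ndufc2, Ndufs4, Ndufs1 and Ndufb11. Ndufs7, which carries the last iron-sulfur cluster before coenzyme Q, ran from 68.3 to 76.5 cpm in the cerebellum, from 50.5 to 63.4 cpm in the cortex and from 47.3 to 55.3 cpm in the hippocampus, so the cerebellum overlapped with neither. It was 0.47 ± 0.07 log2 units above the hippocampus (adjusted p = 2.62e-06) and 0.33 ± 0.07 above the cortex (adjusted p = 1.46e-04). Ndufs1, the largest core subunit of the electron input arm, was 0.24 ± 0.07 and 0.34 ± 0.07 higher in the cerebellum than in hippocampus and cortex (adjusted p = 0.00534 and 1.08e-04). Ndufc2, a membrane arm subunit, was 0.43 ± 0.09 and 0.41 ± 0.08 higher (adjusted p = 1.88e-04 and 2.00e-04).

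Ndufv1, which holds the NADH site, was 0.25 ± 0.08 log2 units higher in the cerebellum than in the hippocampus (adjusted p = 0.00963), and its difference from the cortex was 0.06 ± 0.08 (adjusted p = 0.545). The first call was lost with the mouse as a replicate block (adjusted p = 0.0326), with median ratio size factors (adjusted p = 0.0132) and with no filter (adjusted p = 0.0137). Ndufs4, a subunit whose loss causes encephalopathy in mice, was 0.36 ± 0.07 and 0.31 ± 0.07 higher in the cerebellum than in hippocampus and cortex (adjusted p = 1.73e-04 and 5.61e-04).

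The accessory subunits Ndufb9 and Ndufb6 of complex I were lower in the cerebellum than in both other regions. Ndufb9 ran from 115 to 139 cpm in the cerebellum, from 147 to 182 cpm in the cortex and from 154 to 185 cpm in the hippocampus, with no overlap, and its log2 fold change was -0.42 ± 0.07 against the hippocampus (adjusted p = 9.98e-06) and -0.39 ± 0.07 against the cortex (adjusted p = 1.62e-05). Ndufb6 was lower at -0.34 ± 0.07 and -0.26 ± 0.07 (adjusted p = 4.19e-04 and 0.00312).

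Complex II showed no call with TMM. Sdha, which holds the flavin and the succinate site, was at 500 ± 25.3 cpm in the cerebellum, 437 ± 53.9 cpm in the cortex and 427 ± 72.3 cpm in the hippocampus (adjusted p = 0.0202 for cerebellum against hippocampus). Sdhb, an iron-sulfur subunit, was at 37.3 ± 3.18, 41.6 ± 4.17 and 37.6 ± 3.25 cpm. With library totals Sdha was called higher in the cerebellum, by 0.395 log2 units against the hippocampus (adjusted p = 1.87e-04) and 0.439 against the cortex (adjusted p = 3.17e-05). In complex III 2 of 8 members were higher in the cerebellum in both comparisons. Uqcrfs1, the Rieske iron-sulfur protein, ran from 323 to 367 cpm in the cerebellum, from 245 to 296 cpm in the cortex and from 268 to 285 cpm in the hippocampus, and was 0.39 ± 0.06 and 0.32 ± 0.06 log2 units above cortex and hippocampus (adjusted p = 1.42e-06 and 4.46e-05). Uqcrh, the hinge protein, was 0.37 ± 0.07 above the hippocampus and 0.24 ± 0.07 above the cortex (adjusted p = 1.17e-04 and 0.00577). Uqcrc1, a core protein, had only 8.54 ± 1.51, 8.68 ± 1.40 and 9.11 ± 1.49 cpm in cerebellum, hippocampus and cortex and passed no test.

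In complex IV, apart from the variant forms, Cox5a was 0.26 ± 0.08 log2 units higher in the cerebellum than in the hippocampus (adjusted p = 0.00414), while Cox6a1, Cox6c and Cox8a were lower than in the cortex, Cox8a at 815 ± 41.8 against 976 ± 80.8 cpm (adjusted p = 0.00156). In complex V 2 of 15 members were higher in the cerebellum than in the hippocampus and 3 higher and 1 lower than in the cortex. Atp5b, the catalytic beta subunit, was at 255 ± 19.4 cpm in the cerebellum and at 204 ± 22.8 and 204 ± 27.1 cpm in hippocampus and cortex (adjusted p = 0.00266 and 0.00129). Atp5h, a stalk subunit, was higher by 0.25 ± 0.07 and 0.27 ± 0.07 (adjusted p = 0.00296 and 0.00130). The alpha subunit gene Atp5a1 was listed at only 13.4 ± 1.89, 11.9 ± 1.41 and 11.2 ± 2.36 cpm in cerebellum, hippocampus and cortex and passed no test.

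Together 13 members were higher and 5 lower in the cerebellum than in both other regions. The share of all genes called against both regions was not worked out, so these counts are a description. Cox7a1, one of the 13, is no support for that count, given how it passed the filter, and the same holds for Cox6a2, one of the 5. The lower ones were Cox6a2, Cox6a1, Cox7a2l, Ndufb6 and Ndufb9. With the mouse as a replicate block the call for Cox6a1 against the hippocampus was lost (log2 fold change -0.209, adjusted p = 0.0119), and with no filter so were those for Cox6a1 against the hippocampus (adjusted p = 0.0412) and for Cox7a2l against the cortex (adjusted p = 0.0208). The latter was lost with distinct transcripts summed, too (adjusted p = 0.0127). The median log2 fold change of the tested members was 0.11 for cerebellum against hippocampus and 0.13 against cortex, where that of all genes was 0.02 for both, and -0.01 for cortex against hippocampus, where that of all genes was -0.01. Scaling changed the counts: with library totals in place of TMM, whose factors were between 1.089 and 1.13 in the cerebellum and between 0.896 and 0.9904 elsewhere, the median of all genes moved to 0.20 and 0.25 and that of the members to 0.28 and 0.37. The members then stayed 0.09 and 0.12 above all genes, as with TMM, but 41 were higher and 2 lower than in the hippocampus, in place of 17 and 6, and 47 were higher and 1 lower than in the cortex, in place of 17 and 8. The shares of all genes called that are given above are from TMM and do not hold for these counts. The calls for lower expression in the cerebellum that held under both scalings were those of Cox6a2 in both comparisons and of Ndufb9 against the hippocampus, and no called member changed direction. Without the hippocampal library of mouse m118, 14 members were higher and 7 lower in the cerebellum than in the hippocampus, with 4 past the thresholds, and Cox6a2 alone differed between cortex and hippocampus. The share of all genes called in that fit is not given here.

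Summed over its members, with TMM scaling, complex I came to 8234 ± 342 cpm in the cerebellum, 7905 ± 403 cpm in the hippocampus and 7719 ± 510 cpm in the cortex, with overlapping ranges. With library totals the ranges for complex I did not overlap, at 8638 to 9674 cpm in the cerebellum and at most 8293 cpm elsewhere. Without Ndufa12, which gave 3550 ± 292 cpm in the cerebellum alone, complex I came to 4685 ± 82.3 cpm in the cerebellum against 4285 ± 184 and 4249 ± 200 cpm. Complex IV summed to 3442 ± 99.3 cpm in the cerebellum, below 3652 ± 206 cpm in the hippocampus and 3877 ± 257 cpm in the cortex. With library totals this order turned, to 3799 ± 96.3, 3564 ± 150 and 3629 ± 183 cpm. Complexes II, III and V summed to 558 ± 24.6, 2020 ± 119 and 2379 ± 76.4 cpm in the cerebellum, 480.7 ± 72.7, 1846 ± 190 and 2299 ± 99.2 cpm in the hippocampus and 495.8 ± 55.8, 1974 ± 146 and 2231 ± 105 cpm in the cortex. With library totals the cerebellum lay above both other regions without overlap for complex III, from 2037 cpm against at most 1980 cpm, and for complex V, from 2452 cpm against at most 2376 cpm.

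**Figure D3:**
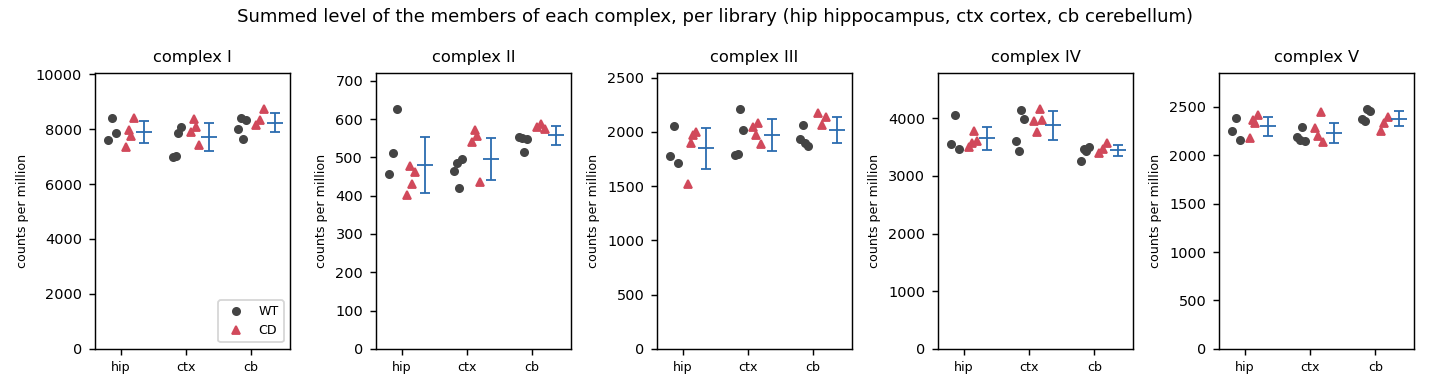
Summed cpm, with TMM scaling, of the members of each complex in each WT (circles) and CD (triangles) library, by region, with the mean and SD over both genotypes as a bar. At this scaling the regions overlap in each complex, with complex IV lowest on average in the cerebellum at 3442 cpm, an order that turned with library totals, where complexes I, III and V of the cerebellum overlap with neither other region.

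Of 18 listed regulators of mitochondrial biogenesis 16 were tested, and 10 were higher and 0 lower in the cerebellum than in the hippocampus, and 9 higher and 0 lower than in the cortex. Over all genes 24.7% were higher and 26.0% lower than in the hippocampus, and 25.7% higher and 26.0% lower than in the cortex. The estrogen-related receptors, nuclear receptors known to drive respiratory genes, were among them. Esrrb ran from 25.7 through 27.0 to 32.6 cpm in the cerebellum and from 2.01 to 3.46 cpm in the hippocampus, a log2 difference of 3.32 ± 0.16 (adjusted p = 4.40e-15), and was 2.54 ± 0.15 above the cortex (adjusted p = 1.22e-13). Esrrg was 1.78 ± 0.16 and 1.12 ± 0.15 higher than in hippocampus and cortex (adjusted p = 6.20e-10 and 4.57e-07), and Ppargc1b, a coactivator of these receptors, 1.56 ± 0.13 and 1.36 ± 0.13 higher (adjusted p = 2.16e-10 and 1.03e-09).

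Esrra was 1.10 ± 0.15 log2 units above the hippocampus in the cerebellum (adjusted p = 5.79e-07) and 0.66 ± 0.15 above it in the cortex (adjusted p = 0.00101). Gabpb2, a subunit of the ETS factor GABP, was 1.72 ± 0.28 above the cortex (adjusted p = 8.38e-06). Between cortex and hippocampus 4 regulators were higher and 1 lower, the lower one being Nrf1, at 18.4 ± 1.74 against 23.6 ± 3.10 cpm (adjusted p = 0.00825). Without the hippocampal library of mouse m118 the call for Nrf1 was lost, with 0 lower. With library totals the cerebellum had 11 and 13 regulators higher and 0 lower, counts for which the shares of all genes are not given here.

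**Figure D4:**
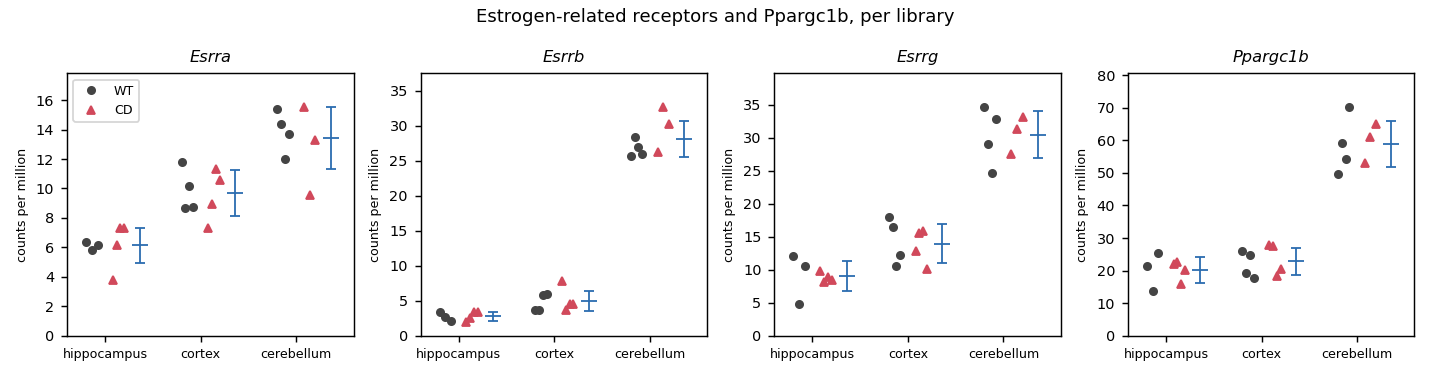
Levels in cpm of 3 estrogen-related receptors and the coactivator Ppargc1b in each WT (circles) and CD (triangles) library by region, with the mean and SD over both genotypes as a bar. For Esrrb, Esrrg and Ppargc1b every cerebellar library lies above every hippocampal and cortical one, while Esrra overlaps between cerebellum and cortex.

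Of 16 tested complex I assembly factors 4 were higher and 4 lower in the cerebellum than in the hippocampus, and 2 higher and 1 lower than in the cortex, where library totals gave 4 and 2, and 4 and 0. The shares of all genes given beside the regulators hold for the TMM counts of this and the following lists too. They do not hold for the counts with library totals. Lyrm2, an assembly factor, was lower at -0.76 ± 0.09 and -0.50 ± 0.09 log2 units (adjusted p = 1.11e-07 and 3.89e-05). Of 32 tested factors for complexes II to IV 5 were higher and 8 lower than in the hippocampus and 6 higher and 5 lower than in the cortex, a balance that turned with library totals, to 11 and 2, and 13 and 4. Ttc19, which is needed for complex III, was at 20.8 ± 3.29 cpm in the cerebellum, 43.3 ± 5.39 cpm in the hippocampus and 44.8 ± 7.79 cpm in the cortex (log2 fold change -1.05 ± 0.12 and -1.10 ± 0.12, adjusted p = 4.51e-08 and 1.32e-08). Sdhaf1, which serves complex II, was higher by 0.66 ± 0.13 and 0.68 ± 0.12 (adjusted p = 7.21e-05 and 3.36e-05). Of 4 tested ATP synthase assembly factors Fmc1 was higher in both comparisons, by 0.37 ± 0.08 and 0.40 ± 0.08 (adjusted p = 2.73e-04 and 9.28e-05).

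Among 18 tested electron carriers and related genes 3 were higher and 3 lower in the cerebellum than in the hippocampus, and 3 higher and 2 lower than in the cortex. With library totals these became 8 and 1, and 10 and 1. Pdss1, which builds the coenzyme Q side chain, was 0.98 ± 0.14 and 0.84 ± 0.13 log2 units higher (adjusted p = 8.56e-07 and 4.81e-06), while Coq2 and Coq4 of the same pathway were lower, at -0.63 ± 0.15 and -0.69 ± 0.17 against the hippocampus (adjusted p = 6.80e-04 and 8.28e-04). Of 16 tested genes of the tricarboxylic acid cycle 3 were higher and 2 lower in each of these comparisons, with Idh3g, a regulatory subunit of isocitrate dehydrogenase, 0.48 ± 0.07 and 0.47 ± 0.06 higher (adjusted p = 1.03e-06 and 6.02e-07) and Pdha1, of pyruvate dehydrogenase, lower at -0.38 ± 0.08 and -0.44 ± 0.08 (adjusted p = 1.51e-04 and 2.14e-05). With library totals 6 genes of the cycle were higher and 1 lower than in the hippocampus, and 8 higher and 0 lower than in the cortex.

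Of 17 tested genes of glycolysis and lactate 3 were higher and 6 lower in the cerebellum than in the hippocampus, and 1 higher and 7 lower than in the cortex. With library totals these became 5 and 4, and 4 and 5. The lactate dehydrogenase subunits parted: Ldha was at 45.9 ± 5.74 cpm in the cerebellum, 81.2 ± 9.81 cpm in the hippocampus and 98.0 ± 16.6 cpm in the cortex, whereas Ldhb, the form tied to lactate use, was at 524 ± 34.7, 280 ± 16.8 and 482 ± 51.5 cpm. Against the hippocampus Ldha was lower at -0.82 ± 0.10 (adjusted p = 9.59e-08) and Ldhb higher by 0.91 ± 0.07 (adjusted p = 7.04e-11). Aldoc, an aldolase of astrocytes and of Purkinje cell stripes, was 1.47 ± 0.07 higher (adjusted p = 9.67e-16). Of 16 mitochondrial carriers and porins 4 were higher and 2 lower, and of 18 genes of import and cristae 3 were higher and 3 lower, than in the hippocampus. Against the cortex these counts were 2 and 2, and 4 and 4. With library totals the carriers had 7 and 1 against the hippocampus and 8 and 1 against the cortex, and the import genes 6 and 3, and 7 and 2.

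The second question was whether lowered circTulp4 goes with a change in these genes. No member was past the thresholds or had an adjusted p below 0.01 in any region, and neither was any other gene (0.0% by edgeR, of 9964 genes tested for hippocampus, 9927 for cortex and 10141 for cerebellum). At an unadjusted p below 0.05 there were 3 of 74 members in the hippocampus (4.05%, against 4.22% of all genes), 2 of 74 in the cortex (2.70%, against 3.30%) and 3 of 75 in the cerebellum (4.0%, against 4.55%). The median log2 fold change, CD minus WT, was 0.02 for hippocampal, 0.04 for cortical and 0.015 for cerebellar libraries, where that of all genes lay between -0.00576 and -0.00174. DESeq2 gave 0 members past the thresholds in each region.

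Cox6a2 had the smallest p of any member between genotypes within a region. In the hippocampus it was at 24.9, 17.9, 22.9 and 26.4 cpm in the CD mice m118, m138, m190 and m242 and at 15.7, 16.9 and 15.2 cpm in the WT mice m162, m240 and m244. The lowest CD library lay above the highest WT library. The log2 fold change was 0.52 ± 0.16 (SE), with an unadjusted p = 0.00762 and an adjusted p = 0.9975 by edgeR, and without the library of mouse m118 it was 0.49 ± 0.17. In the cortex it was at 67.0, 56.9, 70.9 and 70.6 cpm in CD and at 61.5, 39.5, 64.6 and 69.7 cpm in WT mice, with overlap.

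In the hippocampus Uqcrc2 and Ndufb3 were also higher in every CD than in every WT library, so that 3 of 74 members (4.05%) did not overlap between genotypes, as against 5.44% of all genes tested. Without the library of mouse m118 these became 7 of 74 (9.46%) and 9.2% of all genes, and the members with an unadjusted p below 0.05 became 2. The share of all genes at that p without this library is not given here. Uqcrc2, a core protein of complex III, was at 144, 135, 124 and 131 cpm in CD and 114, 110 and 113 cpm in WT mice (log2 fold change 0.25 ± 0.09, adjusted p = 0.9975, and 0.22 ± 0.10 without mouse m118). Sdha was at 343, 414, 383 and 410 cpm in CD and 406, 464 and 569 cpm in WT mice, with overlap (-0.30 ± 0.13, adjusted p = 0.9975), and without mouse m118 the log2 fold change was -0.25 ± 0.13. Ndufa10 had a log2 fold change of 0.31 ± 0.16, and of 0.18 ± 0.13 without mouse m118.

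In the cortex 1 of 74 members (1.35%) did not overlap, against 2.55% of all genes. It was Ndufb5, at 169, 197, 184 and 193 cpm in CD and 167, 168, 151 and 154 cpm in WT mice (0.21 ± 0.10, adjusted p = 0.9998). Ndufa4, Atp5pb and Ndufa6 had log2 fold changes of 0.31 ± 0.13, 0.24 ± 0.11 and 0.24 ± 0.12. In the cerebellum 3 of 75 (4.0%) did not overlap, against 5.33%: Ndufa9 and Sdha were higher and Cox5a lower in CD. Ndufa9 was at 72.7, 67.3 and 75.7 cpm in CD and 59.5, 65.4, 56.0 and 63.2 cpm in WT mice (0.24 ± 0.11, adjusted p = 0.9806). Uqcr11, a small subunit of complex III, was at 38.1, 47.1 and 31.9 cpm in CD and 31.4, 33.0, 30.1 and 29.0 cpm in WT mice, with overlap (0.33 ± 0.14, adjusted p = 0.9806), and Cox7b and Ndufb5 had log2 fold changes of -0.23 ± 0.10 and 0.27 ± 0.13.

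**Figure D5:**
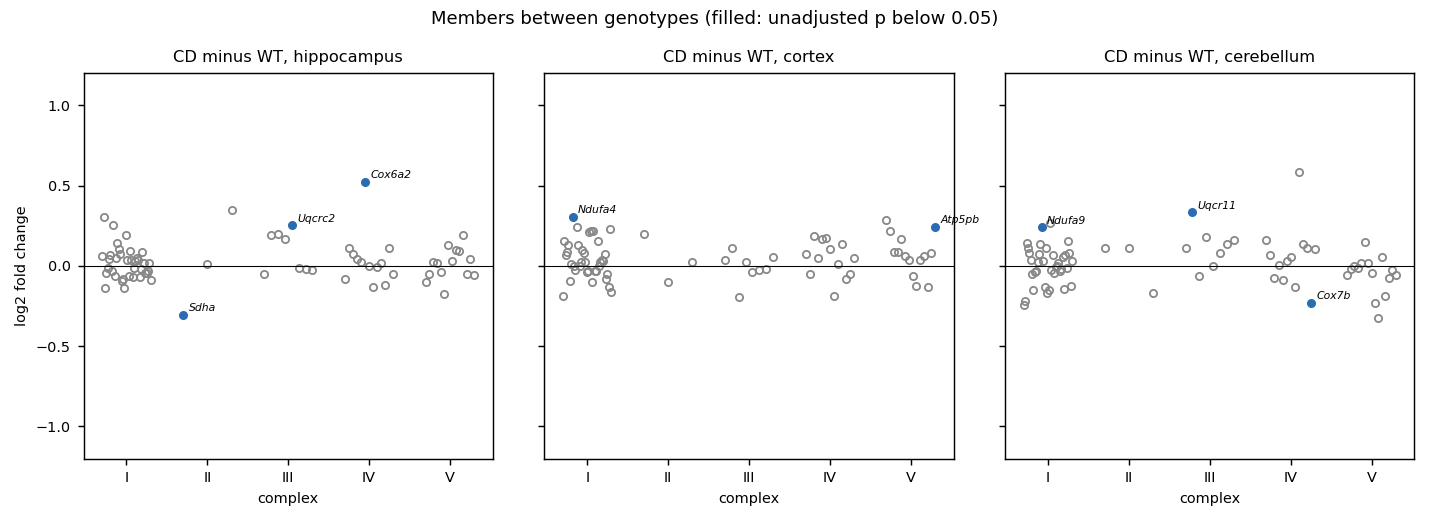
Log2 fold change, CD minus WT (vertical axis), of the tested members in each region, by complex, with filled and named points at an unadjusted p below 0.05. In the hippocampus 3 points are filled, in the cortex 2 and in the cerebellum 3, and no member had an adjusted p below 0.01.

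Over the 3 regions together, in a limma-voom fit with the mouse as a block (block correlation 0.0295), 0 of 76 members had an adjusted p below 0.01 and 1 (1.32%) had an unadjusted p below 0.05, against 3.58% of 11137 genes. It was Uqcr11, at a log2 fold change of 0.22 ± 0.09 (adjusted p = 0.9997). Cox6a2, Ndufa9 and Ndufa7 followed at 0.49 ± 0.24, 0.11 ± 0.06 and 0.12 ± 0.07. The interaction of genotype and region had 0 members with an adjusted p below 0.05, and 2 (2.63%) with an unadjusted p below 0.05, against 3.91% of all genes. These were Sdha and Atp5pb. Sdha was lower in CD than in WT mice on average in the hippocampus and higher in the cerebellum, at between 514 and 533 cpm in CD and 454 and 498 cpm in WT libraries, but the difference between regions did not pass the adjustment (adjusted p = 0.999).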

How the data were processed

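Total RNA of 3 brain regions was made into CelSeq2 3′ libraries. The authors aligned reads to mm10 with STAR and deposited raw counts per RefSeq transcript from ESAT. Versions, strand setting and the collapsing of molecular identifiers are not given in the sources used here. Of 85964 transcripts listed, 69288 matched 1 of 23037 genes by RefSeq identifier without version, with 81.4% of counts, and the transcript with the highest total stood for its gene. Genes with at least 5 cpm in 2 libraries were tested with edgeR 4.0.16 (TMM, quasi-likelihood F-test, R 4.3.3), between regions over all 22 libraries and between genotypes within a region, with Benjamini-Hochberg adjustment over all genes tested. limma 3.58.1, with the mouse as a block, served for all regions together. DESeq2 1.42.0, median ratio size factors, library totals, no filter, summed distinct transcripts and leaving out each library were alternatives. Libraries with the same mouse number come from 1 animal. Their deviations from group means correlated at between -0.08 and 0.18. Groups follow the labels, 1 library per mouse and region, and the series description gives smaller group sizes than the labels. Isoform ratios used a pseudocount of 0.5 cpm and exact permutation tests (Python 3.11).

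In data simulated on the real means and library sizes, with 50 genes at each fold, the test between cerebellum and cortex recovered 29 genes at a fold of 1.5 and 48 at a fold of 2, and the hippocampal genotype test 12 and 34. Counts limit the precision of low genes, and intervals cover counting and library spread only. The named genes are the isoform pairs, 10 core subunits, the 12 members with the largest fold among those with an adjusted p below 0.01 in each region comparison, the 4 with the smallest p in each genotype comparison, and up to 4 genes a list with the largest fold at an adjusted p below 0.01. Ndufb3, Cox5a and Sdha in the counts without overlap were named after their values were seen. Atp5h, Ndufb11 and Cox6c, from the members that differed between regions, were named outside these rules. The members and lists were chosen with earlier results of these data known. Near-identical 3′ ends were searched in GENCODE with BLAST 2.17.0. The result of 1 named member is not reported here.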

Additional observations from a re-analysis of the deposited data

Results flagged for a closer look

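In 4 of 88 groups of 4 libraries, over 22 named genes, 1 library stood apart from the other 3 by Dixon's criterion (0.829), which chance alone meets in about 1 in 20 groups. Cox6b1 in CD hippocampus had a highest library at 293 cpm, with the others between 282 and 283 cpm. Cox6b2 in CD cortex had a highest library at 11.2 cpm, with the others between 7.21 and 7.49 cpm. Ndufa10 in CD cortex had a lowest library at 69.6 cpm, with the others between 96.2 and 101 cpm. Uqcr11 in WT cortex had a lowest library at 24.5 cpm, with the others between 39.2 and 40.5 cpm.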

How the results depend on the processing

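With library totals the members with an adjusted p below 0.01 numbered 3 between cortex and hippocampus, 43 between cerebellum and hippocampus (median log2 fold change 0.283) and 48 between cerebellum and cortex (median 0.368), 4 members of the cortex had a genotype p below 0.05, and the summed cpm was 15260 over members in the cortex, 18350 in the cerebellum, 9085, 615.6, 2229, 3799 and 2627 for complexes I to V in the cerebellum and 2090 for complex V in the cortex. In wild-type libraries only, with fewer samples, 8 and 10 members differed between cerebellum and hippocampus or cortex and 2 were past the thresholds against the cortex. In CD libraries only 13 and 10 differed. Without a filter 16 differed between cerebellum and cortex and 4 had a genotype p below 0.05 in the cortex. DESeq2 and summed transcripts each left 1 genotype p below 0.05 in the cerebellum. With the mouse as a replicate block edgeR gave 1, 22 and 25 members with an adjusted p below 0.01, and no count moved by over 1.5 times. For the isoform ratios the replicate block was a sign-flip test within mice. The smallest p it can reach is 0.0156 over 7 mice and 0.0312 over 6. It gave an adjusted p of 0.0505 for the calls of Cox4i2, Cox6a2, Cox6b2, Cox7a1 and Cox7a2l. For Cox8b it gave 0.0938, so these calls were lost. Its differences were 1.32 and 1.12 for Cox4i2, 1.65, -3.15 and -4.86 for Cox6a2, -0.519, 1.14 and 1.64 for Cox6b2, 1.41 and 1.03 for Cox7a1, -0.6 and -0.458 for Cox7a2l and -0.892 for Cox8b. With a pseudocount of 0.1 cpm the Cox8b ratio was -1.1 for cortex against hippocampus, no longer past 0.05, and -0.137 for cerebellum against cortex, where a pseudocount of 2 cpm gave 0.223, past 0.05. The Ndufa4l2 ratio for cerebellum against hippocampus was 0.00325 with a pseudocount of 0.1 cpm and 0.047 with the replicate block. The cause of these changes was not tested. Shares of all genes called are given for the main fits alone, so the counts of members under other settings have none beside them.

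Leaving out 1 library gave between 19 and 26 members with an adjusted p below 0.01 in both cerebellar comparisons, 3 to 4 past the thresholds against the cortex, and genotype p below 0.05 in 1 to 4 members of the hippocampus, 0 to 6 of the cortex, 0 to 5 of the cerebellum and 0 to 5 over all regions. The ratio of Cox4i2 for cortex against hippocampus ran from -0.000831 to 0.355, that of Cox8b from -1.03 to -0.604, from -0.915 to -0.485 and from -0.0744 to 0.234 in the 3 comparisons, and that of Ndufa4l2 for cerebellum against hippocampus from -0.103 to 0.049.

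Directions also turned for genes without a call. For cortex against hippocampus these were Cox6a1 at -0.00371 (library totals), -0.0202 (wild-type libraries only), Cox7a2 at -0.011 (library totals), -0.0135 (wild-type libraries only), Ndufa4 at 0.00555 (no filter), 0.00645 (replicate block), 0.166 (CD libraries only), Sdha at -0.0432 (library totals), -0.24 (wild-type libraries only), Atp5a1 at 0.113 (CD libraries only), Atp5b at 0.122 (CD libraries only). For cerebellum against hippocampus these were Cox8a at 0.0462 (library totals), Sdhb at 0.171 (library totals), 0.0104 (no filter), 0.00759 (distinct transcripts summed), 0.0494 (CD libraries only), Uqcrc1 at -0.00271 (median ratio size factors), -0.0019 (DESeq2), -0.0399 (replicate block), -0.00734 (wild-type libraries only). For cerebellum against cortex these were Cox4i1 at -0.00705 (median ratio size factors), -0.00673 (DESeq2), -0.00133 (replicate block), -0.0458 (wild-type libraries only), Cox6b1 at 0.177 (library totals), Ndufv1 at -0.0522 (wild-type libraries only), Sdhb at 0.0861 (library totals), Uqcrc1 at 0.16 (library totals), 0.0112 (CD libraries only), Cox5a at -0.0155 (CD libraries only). Leaving out 1 library turned the direction of Ndufa4 for cortex against hippocampus (-0.0533 to 0.0378), Sdha for cortex against hippocampus (-0.0388 to 0.0844), Atp5b for cortex against hippocampus (-0.063 to 0.0227), Sdhb for cerebellum against hippocampus (-0.041 to 0.0397), Uqcrc1 for cerebellum against hippocampus (-0.0814 to 0.107), Cox4i1 for cerebellum against cortex (-0.0361 to 0.0418), Cox6b1 for cerebellum against cortex (-0.0926 to 0.00626), Uqcrc1 for cerebellum against cortex (-0.158 to 0.00635).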
